A study of Homo sapiens with 8 samples.

Results

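The 10 secreted signals described here are 5 chemokines that act on neutrophils (CXCL1, CXCL2, CXCL3, CXCL5 and CXCL8), the chemokine CCL20, and the cytokines IL32, IL18, CSF1 and LIF. They were taken by symbol from tables of 46427 gene symbols, and all 10 were found and passed the filter that left 18303 genes for testing. They were picked, with earlier results of these data known, because such factors are commonly counted in the senescence-associated secretome. Senescence itself was not measured. The cells were wild type and came from H7, an established human embryonic stem cell line. They had been turned into what the labels call differentiated type 2 alveolar cells over 21 days of submerged culture, then 3 days submerged and 7 days at an air-liquid interface on inserts. The 4 groups of 2 libraries each were untreated cells and cells exposed for 24 h to bleomycin, a drug that breaks DNA strands, at 24, 240 or 480 µg/ml on the apical side. The labels give an apical volume and an exposure time for the dosed cells but not for the control, called untreated here. An effect of apical liquid can thus not be told apart from that of the drug. The labels also give a stock of 10 µg/ml, which is below every dose. They do not say whether the 2 libraries of a group came from separate cultures, so p-values here rest on a spread between libraries that may be only technical.

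Cells with lasting DNA damage are known to secrete chemokines, cytokines, growth factors and proteases. The transcription factors NF-κB and C/EBPβ drive many of these genes, and IL-1α on the cell surface keeps NF-κB active. In the lung, epithelial cells use the CXC chemokines to draw neutrophils and CCL20 to draw dendritic cells and lymphocytes, while CSF1 sustains macrophages and LIF signals through STAT3.

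The libraries held 53431773 to 67715984 counts. CPM are counts scaled to library size, with TMM factors except for the limit given next. A count of 3, the upper limit that a count of 0 allows, equals 0.0443 to 0.0561 CPM by library total alone. This limit covers counting error only. None of the 80 member values (10 genes in 8 libraries) was at or under this floor. The lowest was 5 counts, for CXCL8 in the second 240 µg/ml library, and the highest was 1578 counts, for IL32 in the first untreated library. Of 9 type 2 alveolar markers, 7 were over the floor in both untreated libraries. Among these were SFTPB, ABCA3, SLC34A2, LAMP3 and NKX2-1, with untreated means of 15.9, 13.1, 14.7, 0.986 and 0.923 CPM. NAPSA and SFTPA2 were the weakest of the 7, at 0.220 and 0.0705 CPM, and SFTPA2 had only 4 counts in each untreated library. The other 2 of the 9 were the surfactant gene SFTPC, which defines mature type 2 cells, with 0 counts in both untreated libraries and at most 7 in any other, and SFTPA1, with at most 2. The 6 hepatic markers summed to 62790 to 67575 CPM at 480 µg/ml and 52188 to 53811 CPM in untreated cells. In untreated cells the 9 type 2 alveolar markers summed to at most 48.7 CPM, and the intestinal markers to 2757 to 2765 CPM. Some type 2 markers were thus detected, with SFTPC, SFTPA1 and SFTPA2 at or near 0. Their sum was far below those of the hepatic and intestinal markers, so the type 2 label was not established by these levels. Sums over different genes do not give shares of cells.

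Levels were first compared per transcript length, as TPM (transcript abundance scaled to a common total). In untreated cells IL32, a pro-inflammatory cytokine without a mouse counterpart, led with 64.0 ± 5.30 TPM (SD, n = 2). IL18 followed with 24.7 ± 1.30 TPM, then CXCL5 with 12.1 ± 0.444 TPM and CCL20 with 7.31 ± 0.468 TPM. The libraries of these 4 genes did not overlap with those of the next gene in order. LIF and CXCL3 overlapped at 2.64 and 2.50 TPM, CSF1, CXCL8 and CXCL1 overlapped in turn at 1.52, 1.51 and 1.29 TPM, and CXCL2 was lowest at 0.745 TPM.

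The order differed at 480 µg/ml, where IL18 led with 24.6 ± 5.28 TPM and IL32 had 12.9 ± 4.00 TPM. CXCL5 and LIF overlapped at 4.24 and 4.09 TPM, CSF1 had 1.35 TPM, and the other 5, CXCL2, CXCL3, CCL20, CXCL8 and CXCL1, each overlapped with the next between 0.784 and 0.208 TPM. The 10 genes summed to 118, 83.2, 52.0 and 49.9 TPM (means of 2 libraries) at 0, 24, 240 and 480 µg/ml. IL32 held 26.0% of this sum at 480 µg/ml and 54.1% in untreated cells, and IL18 held 49.3% at 480 µg/ml and 20.9% in untreated cells. In bulk RNA, fewer cells of a type and less RNA per cell cannot be told apart.

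**Figure D1:**
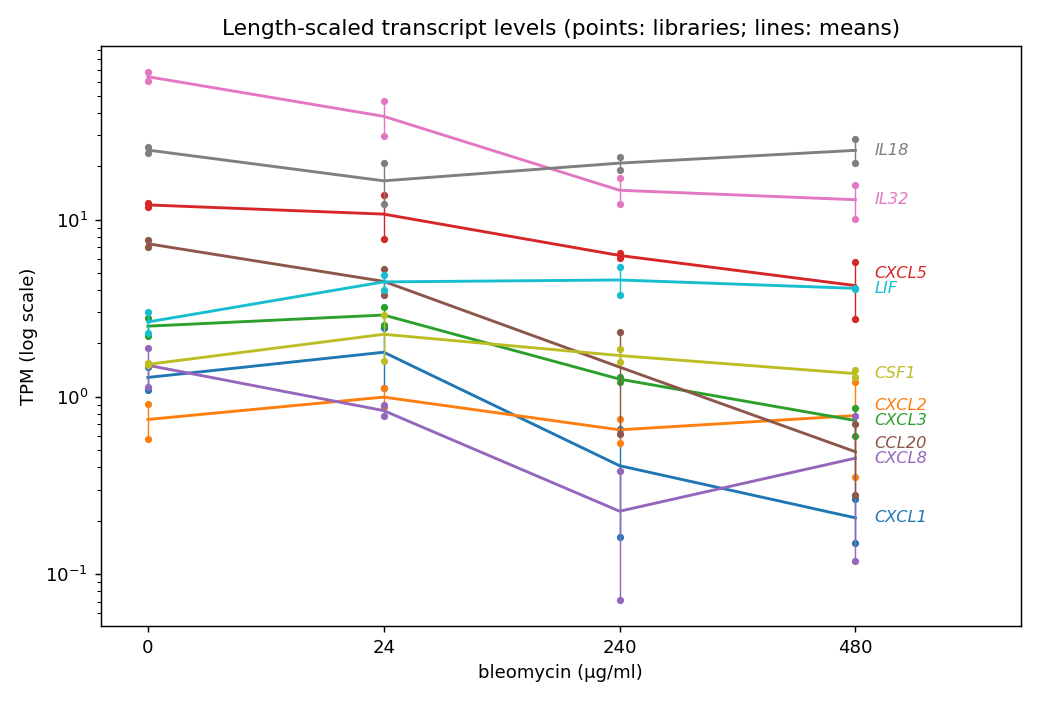
TPM of each of the 10 genes (y axis, log scale) at each bleomycin dose (x axis, µg/ml, not to scale); points are libraries and lines join the means of 2. IL32 was highest in untreated cells at 64.0 TPM, and IL18 was highest at 480 µg/ml at 24.6 TPM.

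Expression of 5 of the 10 genes, CXCL1, CXCL3, CXCL5, CCL20 and IL32, fell at 480 µg/ml against untreated cells, and none rose there. At 24 µg/ml the edgeR quasi-likelihood test with Benjamini-Hochberg adjustment called 0 members and 0% of all tested genes. There 4 members were at an unadjusted p under 0.05, as were 3.31% of tested genes, and DESeq2 and limma called 0 members. At 240 µg/ml CCL20 and IL32 fell and LIF rose, where 5.17% of tested genes fell and 5.16% rose (10.3% in either direction). At 480 µg/ml, 13.9% of tested genes fell, and 27.8% changed in either direction. The median log2 fold change of the 10 genes was 0.00 at 24 µg/ml, -0.87 at 240 µg/ml and -1.57 at 480 µg/ml, against 0.01 for all tested genes at each dose. Both dosed libraries lay beyond both untreated ones in 6 members at 24 µg/ml, 9 at 240 µg/ml and 7 at 480 µg/ml, and in 36.4%, 66% and 62.1% of all tested genes.

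**Figure D2:**
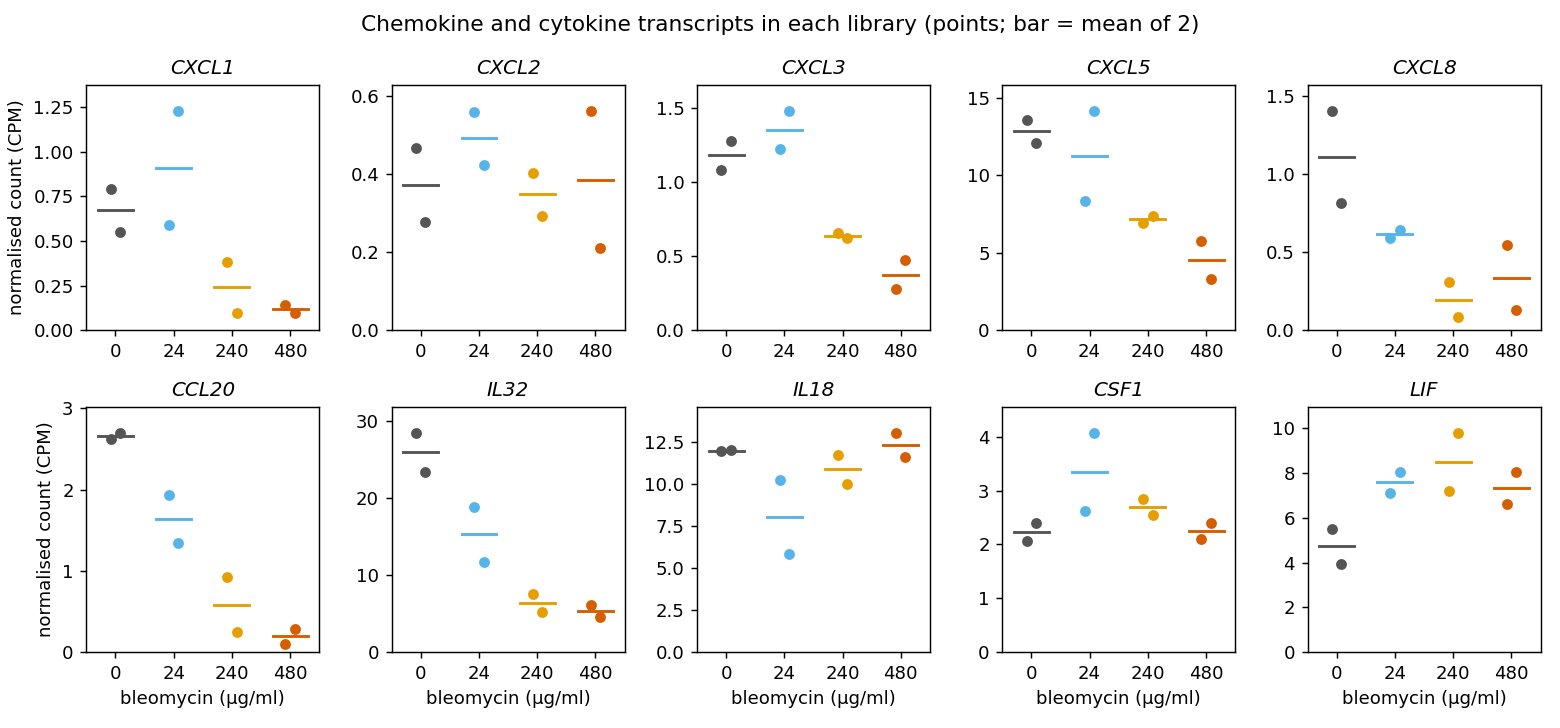
Normalised counts (CPM, y axes from 0) of each gene in every library by bleomycin dose; points are libraries and bars are means of 2. CCL20 and IL32 were lower at 240 and 480 µg/ml than in untreated cells in every library, and IL18 and CSF1 at 480 µg/ml overlapped with untreated cells.

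CCL20, the only chemokine ligand of the receptor CCR6, showed the largest log2 fold change of the set at 480 µg/ml. It had 2.62 and 2.69 CPM in the untreated libraries, 1.93 and 1.34 CPM at 24 µg/ml, 0.922 and 0.245 CPM at 240 µg/ml, and 0.105 and 0.292 CPM at 480 µg/ml. Both libraries of each dose lay below both untreated libraries, and at 480 µg/ml only 6 and 18 counts stood behind the values, against 146 and 156 in untreated cells. Its log2 fold change was -0.70 ± 0.50 (SE) at 24 µg/ml (edgeR adjusted p = 1), -2.21 ± 0.54 at 240 µg/ml (adjusted p = 0.0365) and -3.71 ± 0.61 at 480 µg/ml (13.1-fold lower, adjusted p = 0.0028). The call at 240 µg/ml was lost without the first or second untreated library (adjusted p = 0.144 and 0.15), either 24 µg/ml library (0.0596 and 0.0577) or the second 240 µg/ml library (0.175), and the value was -3.43 without the first 240 µg/ml library and -1.53 without the second. The 480 µg/ml value was -3.19 without the first 480 µg/ml library and -4.63 without the second, and the call held.

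IL32 had 28.4 and 23.4 CPM in the untreated libraries, 18.8 and 11.7 CPM at 24 µg/ml, 7.53 and 5.17 CPM at 240 µg/ml, and 6.10 and 4.57 CPM at 480 µg/ml. No dosed library reached the untreated range, and the 240 and 480 µg/ml libraries overlapped with each other. The log2 fold change against untreated cells was -0.76 ± 0.26 at 24 µg/ml (edgeR adjusted p = 1), -2.03 ± 0.27 at 240 µg/ml (adjusted p = 0.00431) and -2.28 ± 0.27 at 480 µg/ml (4.86-fold lower, adjusted p = 0.000759). Without the second 240 µg/ml library the call at 240 µg/ml was lost (adjusted p = 0.0644).

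Among the neutrophil chemokines, which signal through the receptor CXCR2, CXCL5 was the most abundant. CXCL5 had 13.6 and 12.1 CPM in the untreated libraries, 8.35 and 14.1 CPM at 24 µg/ml, 6.89 and 7.41 CPM at 240 µg/ml, and 5.75 and 3.34 CPM at 480 µg/ml. The 24 µg/ml libraries straddled the untreated ones, whereas every library of the 2 higher doses lay below them. The log2 fold change was -0.84 ± 0.29 at 240 µg/ml (edgeR adjusted p = 0.0982) and -1.50 ± 0.29 at 480 µg/ml (adjusted p = 0.00627).

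CXCL3 had 1.08 and 1.28 CPM in the untreated libraries, 1.22 and 1.48 CPM at 24 µg/ml, 0.653 and 0.620 CPM at 240 µg/ml, and 0.280 and 0.470 CPM at 480 µg/ml. The libraries of the 2 higher doses lay below the untreated ones and did not overlap with each other. Its log2 fold change was -0.89 ± 0.32 at 240 µg/ml (edgeR adjusted p = 0.114) and -1.64 ± 0.33 at 480 µg/ml (adjusted p = 0.00746).

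CXCL1 had 44 and 32 counts in untreated cells, 39 and 84 counts at 24 µg/ml, 20 and 6 counts at 240 µg/ml, and 8 and 6 counts at 480 µg/ml. The second 24 µg/ml library was the highest, and the 480 µg/ml libraries, at 0.140 and 0.0972 CPM, lay below the untreated 0.791 and 0.553 CPM. The log2 fold change was -1.50 ± 0.63 at 240 µg/ml (edgeR adjusted p = 0.164) and -2.48 ± 0.68 at 480 µg/ml (adjusted p = 0.0258). Leaving out the first or second untreated library (adjusted p = 0.117 and 0.0592) or the second 480 µg/ml library (0.0773) ended this call.

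CXCL8, interleukin-8, had 1.40 and 0.812 CPM in the untreated libraries, 0.589 and 0.643 CPM at 24 µg/ml, 0.307 and 0.0816 CPM at 240 µg/ml, and 0.543 and 0.130 CPM at 480 µg/ml. All dosed libraries were below the untreated ones, but the 2 libraries at 240 and at 480 µg/ml stood far apart. The log2 fold changes of -2.53 ± 0.71 at 240 µg/ml and -1.72 ± 0.66 at 480 µg/ml did not pass (edgeR adjusted p = 0.0549 and 0.084). At 240 µg/ml CXCL8 was called in 7 alternatives, DESeq2 among them (adjusted p = 0.0136). Without the first 480 µg/ml library the value was -3.08 at 480 µg/ml (adjusted p = 0.0112).

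CXCL2 had 26 and 16 counts in untreated cells, 37 and 29 counts at 24 µg/ml, 21 and 18 counts at 240 µg/ml, and 32 and 13 counts at 480 µg/ml, and the 480 µg/ml libraries enclosed the untreated ones. Its log2 fold change at 480 µg/ml was 0.05 ± 0.54, with a 95% interval of -1.18 to 1.28. CXCL1, CXCL2 and CXCL3 are near copies: their coding sequences (324 bases each) were 90.7% to 94.4% identical, with identical runs of 55 to 97 bases, so reads may have been split between them by the counting. Summed, the 3 genes had 130 and 122 counts in untreated cells, 157 and 214 counts at 24 µg/ml, 75 and 62 counts at 240 µg/ml, and 56 and 48 counts at 480 µg/ml. Scaled to library size, the sum was 0.552 times the untreated mean at 240 µg/ml and 0.396 times at 480 µg/ml.

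**Figure D3:**
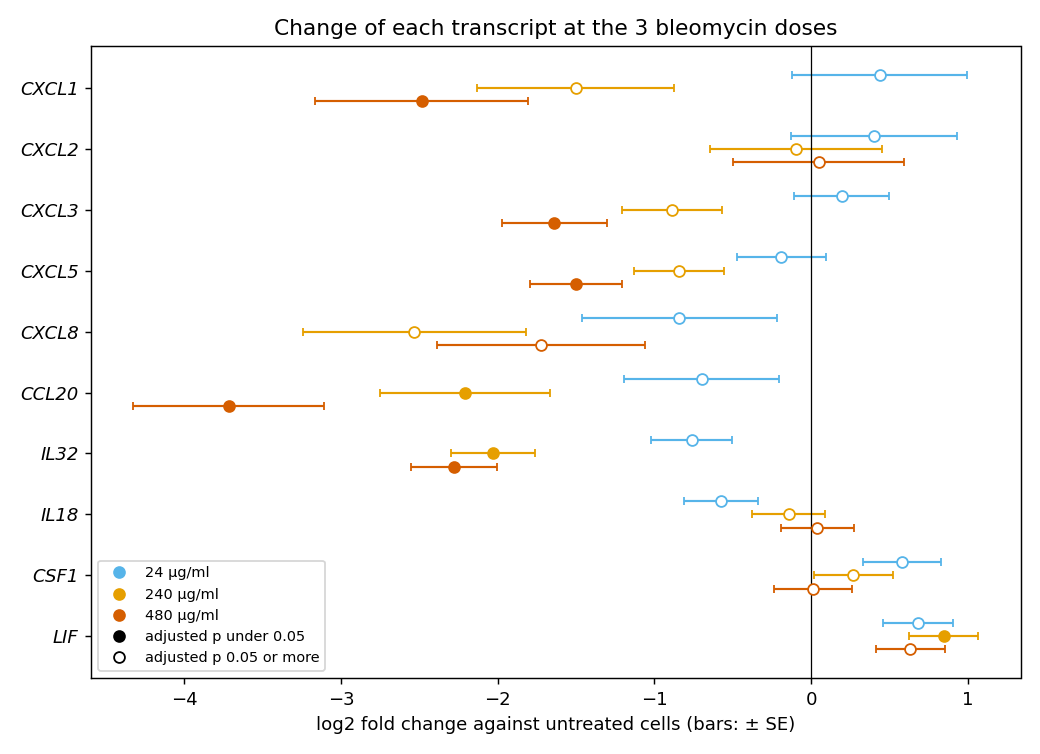
log2 fold change against untreated cells (x axis, bars are SE) of the 10 genes at the 3 doses; filled points have an edgeR adjusted p under 0.05. CCL20 reached -3.71 at 480 µg/ml, and LIF is the only filled point right of 0, at 240 µg/ml (0.84).

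The other 3 cytokines did not pass the test at 480 µg/ml. LIF, a cytokine of the IL-6 family, had 5.52 and 3.94 CPM in the untreated libraries, 7.10 and 8.07 CPM at 24 µg/ml, 7.18 and 9.78 CPM at 240 µg/ml, and 6.61 and 8.04 CPM at 480 µg/ml. Every dosed library lay above both untreated ones. The log2 fold change was 0.68 ± 0.22 at 24 µg/ml (edgeR adjusted p = 1), 0.84 ± 0.22 at 240 µg/ml (adjusted p = 0.0448) and 0.63 ± 0.22 at 480 µg/ml (adjusted p = 0.0628). LIF at 480 µg/ml was called by DESeq2 (adjusted p = 0.0473), with no filter (0.026) and without the first 480 µg/ml library (0.0322). The call at 240 µg/ml held in 7 of 16 alternatives and was lost without any 1 library of the untreated, 24 or 240 µg/ml groups (adjusted p = 0.0738 to 0.292).

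IL18 is made as an inactive precursor that inflammatory caspases cut. It had 12.0093 and 12.0174 CPM in the untreated libraries, 10.3 and 5.86 CPM at 24 µg/ml, 11.8 and 10.004 CPM at 240 µg/ml, and 13.0409 and 11.6 CPM at 480 µg/ml. The second 24 µg/ml library stood apart as the lowest; its 6 hepatic markers summed to 39239 CPM, the lowest of the 8 libraries, and the part of this in the IL18 value was not tested. The log2 fold change was -0.58 ± 0.23 at 24 µg/ml (edgeR adjusted p = 1) and 0.04 ± 0.23 at 480 µg/ml, the last with a 95% interval of -0.49 to 0.56.

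CSF1, the growth factor of macrophages, had 2.07 and 2.40 CPM in the untreated libraries, 2.61 and 4.06 CPM at 24 µg/ml, 2.84 and 2.55 CPM at 240 µg/ml, and 2.10 and 2.40 CPM at 480 µg/ml. The 480 µg/ml values fell within the untreated range, with a log2 fold change of 0.01 ± 0.25 and a 95% interval of -0.56 to 0.58. The 24 and 240 µg/ml libraries were all above it, at 0.58 ± 0.25 and 0.27 ± 0.25, and neither passed (edgeR adjusted p = 1 and 0.536).

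Doses were also compared with each other. Between 240 and 24 µg/ml, IL32 was the 1 member called, lower at 240 µg/ml with a log2 fold change of -1.27 ± 0.27 (edgeR adjusted p = 0.0297), where 3.49% of tested genes fell and 6.83% changed in either direction. The call was lost without any 1 library of the untreated, 24 or 240 µg/ml groups (adjusted p = 0.0579 to 0.216). Between 480 and 240 µg/ml, edgeR called 0 members and 0.257% of tested genes, and 1 member, CCL20, was at an unadjusted p under 0.05 (-1.51 ± 0.65), as were 11.2% of tested genes. Here DESeq2 and limma called 0 members.

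On chromosome 4, 5 of the genes, CXCL8, CXCL1, CXCL5, CXCL3 and CXCL2, lie within 358.6 kb (GRCh38.p14, 73740569 to 74099195) in that order. At 480 µg/ml CXCL1, CXCL5 and CXCL3 fell and CXCL8 and CXCL2 did not pass. Between them lie CXCL6, PF4V1, PF4 and PPBP, which were looked at after their values were seen. CXCL6 (log2 fold change -2.11 ± 1.11, edgeR adjusted p = 0.19) and PF4 (-0.05 ± 0.40, adjusted p = 0.936) did not pass at 480 µg/ml, and PF4V1 and PPBP had 0 counts in every library.

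**Figure D4:**
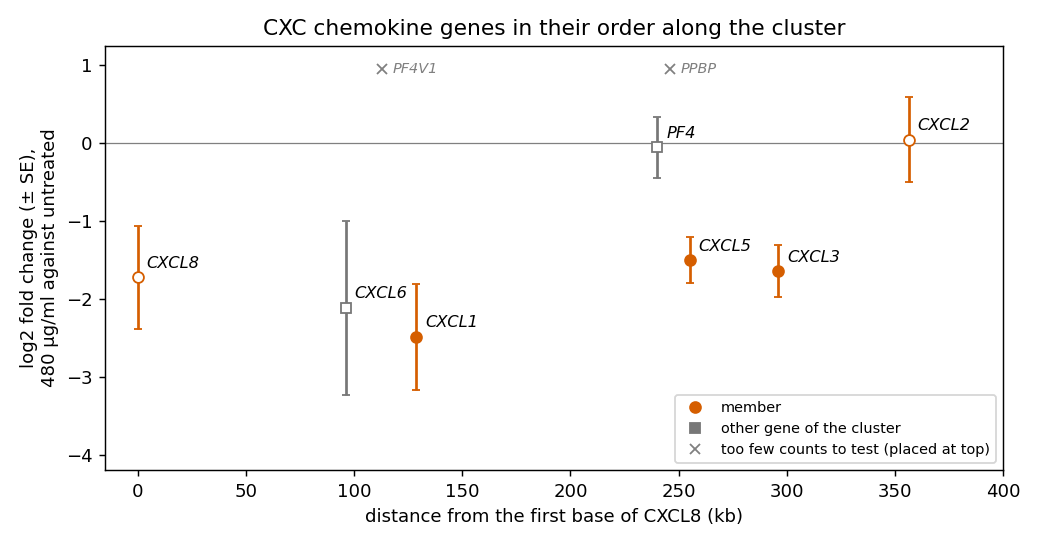
log2 fold change at 480 µg/ml against untreated cells (y axis, bars are SE) by distance from the first base of CXCL8 (x axis, kb). CXCL1, CXCL5 and CXCL3 are filled (edgeR adjusted p under 0.05), and PF4V1 and PPBP, with 0 counts, are drawn as crosses at the top without a value.

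Outside the cluster, CCL20 lies on chromosome 2 (227813842 to 227817556, plus strand), IL32 on 16 (3065403 to 3069530, plus), IL18 on 11 (112143260 to 112164094, minus), CSF1 on 1 (109910506 to 109930992, plus) and LIF on 22 (30240453 to 30246759, minus). In GENCODE v29, IL32, LIF and IL18 overlap genes on the opposite strand, among them AC108134.3 for IL32, LIF-AS1 for LIF and AP002884.3 for IL18. The overlaps were taken over whole genes, introns included, and LIF shared 92 bases with LIF-AS1 and 647 with AC004264.1. The strand used in counting is not given in the sources used here, so reads from the shared stretches may have been counted for either gene.

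The promoters of 7 of the 10 members are printed because NF-κB is a known driver of these genes. No promoter sequence was available here for IL18, CSF1 and LIF, so these were not searched. Each line gives the 140 bases before the gene's start (RefSeq, GRCh38.p14), 5′ to 3′ on the gene's own strand. Capitals mark the letters GGNNTTTCC on either strand, an NF-κB pattern, and in CXCL8 also TGANTCA, an AP-1 pattern.
CXCL1: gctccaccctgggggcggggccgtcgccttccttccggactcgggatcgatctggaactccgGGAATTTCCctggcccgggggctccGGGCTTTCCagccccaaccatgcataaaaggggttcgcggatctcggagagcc
CXCL2: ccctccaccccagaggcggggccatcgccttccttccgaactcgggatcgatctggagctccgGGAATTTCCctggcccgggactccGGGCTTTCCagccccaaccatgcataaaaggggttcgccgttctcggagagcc
CXCL3: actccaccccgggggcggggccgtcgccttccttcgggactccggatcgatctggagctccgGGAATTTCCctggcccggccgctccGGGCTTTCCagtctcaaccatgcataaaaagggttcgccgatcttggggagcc
CXCL5: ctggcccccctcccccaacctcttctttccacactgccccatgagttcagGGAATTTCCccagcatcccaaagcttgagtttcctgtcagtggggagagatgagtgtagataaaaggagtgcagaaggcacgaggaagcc
CXCL8: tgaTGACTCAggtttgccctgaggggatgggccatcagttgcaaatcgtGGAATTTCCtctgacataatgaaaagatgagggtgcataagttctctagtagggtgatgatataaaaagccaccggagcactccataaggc
CCL20: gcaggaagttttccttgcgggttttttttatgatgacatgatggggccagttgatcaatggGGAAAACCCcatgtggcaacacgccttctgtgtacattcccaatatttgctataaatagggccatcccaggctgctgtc
IL32: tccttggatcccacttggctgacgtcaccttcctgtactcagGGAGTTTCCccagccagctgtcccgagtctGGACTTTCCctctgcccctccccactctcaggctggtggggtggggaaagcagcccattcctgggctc

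The NF-κB letters, searched on both strands of the 250 bases before the start, were found in all 7, and in 5.48% of 35116 promoters of that length. The letters were chosen with the textbook sites of these promoters known. CXCL1, CXCL2, CXCL3 and IL32 each held 2 matches. CXCL1 has them at -78 to -70 and -53 to -45 and CXCL2 at -77 to -69 and -53 to -45, counted from the base before the start as -1, and the 250-base windows of CXCL1 and CXCL2 were 76.1% identical. CXCL1 fell at 480 µg/ml and CXCL2 did not pass, but their changes were not tested against each other. The part of the letters in either value was not tested. TGANTCA was found in CXCL8 alone of the 7, and in 6.57% of all promoters.

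The NF-κB pathway itself was represented by 19 genes, all tested. At 480 µg/ml 2 rose and 1 fell, with a median log2 fold change of -0.17 against 0.01 for all genes, of which 27.8% changed in either direction. NFKBIZ, which encodes the nuclear protein IκBζ, had 27.2 and 24.1 CPM at 480 µg/ml against 17.1 and 17.6 CPM in untreated cells (0.57 ± 0.12, edgeR adjusted p = 0.00866). TRAF1, a signalling adaptor, rose by 1.53 ± 0.37 (adjusted p = 0.0148). TNFAIP3, which encodes the inhibitor A20, fell by 0.61 ± 0.19 (adjusted p = 0.0411), and NFKBIA was at -0.35 ± 0.12 (adjusted p = 0.0562).

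Of 14 tested genes acting above the secretome, 3 fell at 480 µg/ml and none rose, with a median of -0.10, where 13.9% of all tested genes fell and 27.8% changed in either direction. IL1A, the cell-surface cytokine upstream of NF-κB, had 5.68 and 4.71 CPM at 480 µg/ml against 9.73 and 11.5 CPM in untreated cells (-1.03 ± 0.17, edgeR adjusted p = 0.00259). IL1B, its secreted relative, changed by -1.31 ± 0.20 (adjusted p = 0.002). CEBPB, which encodes C/EBPβ, was at -0.66 ± 0.24 (adjusted p = 0.0679).

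Receptors for the members differed widely in level. Of 9 receptor genes 5 were tested, and 3 of these fell at 480 µg/ml and none rose, with a median of -0.66, where 13.9% of all tested genes fell. IL18R1, a chain of the IL-18 receptor, had 5 and 5 counts at 480 µg/ml against 40 and 22 in untreated cells (-2.67 ± 0.53, edgeR adjusted p = 0.00643). CCR6, the CCL20 receptor, fell by 1.03 ± 0.28 (adjusted p = 0.0252), and CSF1R, the CSF1 receptor and also a leukocyte marker, by 0.66 ± 0.20 (adjusted p = 0.0346). CXCR1 and CXCR2, the receptors for the neutrophil chemokines, had at most 4 counts in any library. LIFR and IL6ST, the 2 chains of the LIF receptor, had the highest counts of the list, with LIFR at 242 ± 109 CPM at 480 µg/ml and 270 ± 35.0 CPM in untreated cells (SD, n = 2 each). Neither passed at 480 µg/ml (LIFR -0.16 ± 0.26 and IL6ST -0.19 ± 0.21).

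Among 6 genes of the LIF and STAT3 response, PIM1, a kinase gene induced by STAT3, fell by 0.42 ± 0.12 at 480 µg/ml (edgeR adjusted p = 0.0336) and none rose, with STAT3 at 0.33 ± 0.11 (adjusted p = 0.0526). Of 7 tested genes of IL-18 maturation and restraint, CASP4, an inflammatory caspase, rose by 0.69 ± 0.18 (adjusted p = 0.0213) and none fell. In all, 27.8% of tested genes changed at this dose, so 1 call in either list is no more than the share over all genes. CASP1, the caspase best known to cut pro-IL-18, had 0 counts in all 8 libraries.

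**Figure D5:**
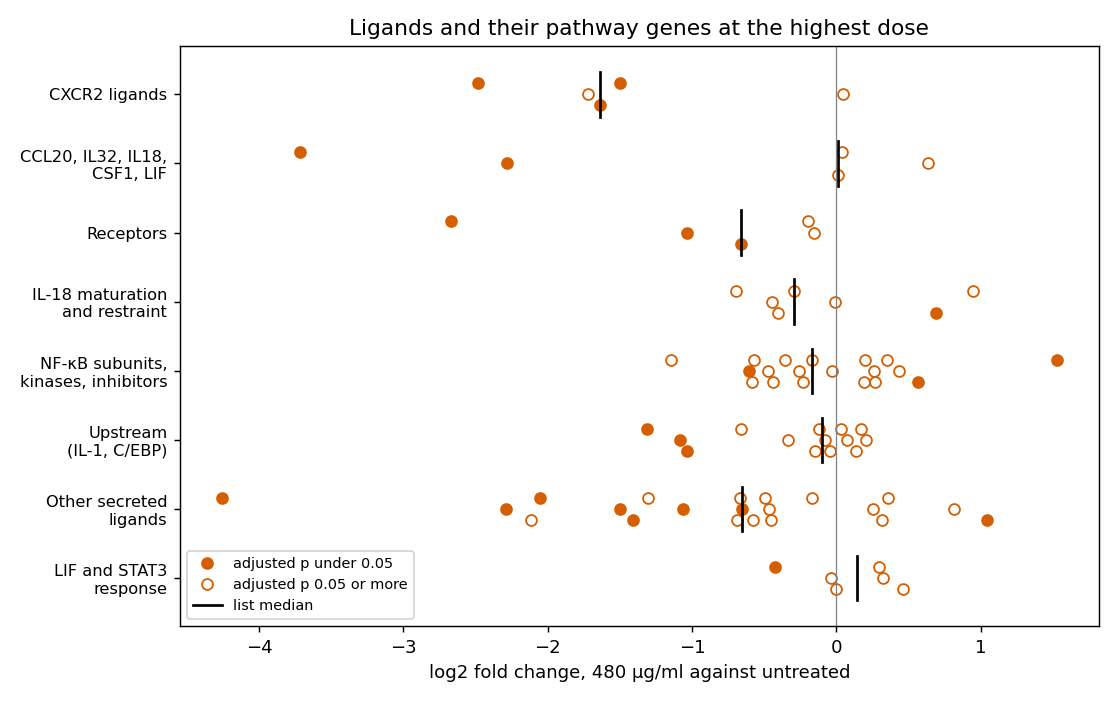
log2 fold change at 480 µg/ml against untreated cells (x axis) for each tested gene of 8 lists, with list medians as vertical lines; filled points have an edgeR adjusted p under 0.05. The median of the neutrophil chemokines was -1.64, and that of the NF-κB genes was -0.17.

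The list of 42 other secreted ligands also held a receptor gene, CSF3R. Of these 42 genes 21 were tested, CSF3R among them. At 480 µg/ml 7 fell and 1 rose, with a median of -0.65, where 13.9% of all tested genes went each way. CCL25, a chemokine of gut and thymus, had 0.175 and 0.194 CPM at 480 µg/ml against 3.88 and 3.28 CPM in untreated cells (-4.26 ± 0.29, edgeR adjusted p = 0.000107). IL33, an alarmin, changed by -2.05 ± 0.31 (adjusted p = 0.00188), TNFSF10, the death ligand TRAIL, by -1.41 ± 0.26 (adjusted p = 0.00449), and VEGFA, an angiogenic factor, by -0.65 ± 0.13 (adjusted p = 0.00581). CCL28, a mucosal chemokine and the one ligand that rose, was looked at after its value was seen (1.04 ± 0.34, adjusted p = 0.0489). IL6 and CSF2, central secretome cytokines, had 0 counts in all 8 libraries, which allows up to 0.0443 to 0.0561 CPM by library total alone.

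Some cell type markers were also called at 480 µg/ml, where 13.9% of all tested genes fell and 13.9% rose (27.8% in either direction). The pluripotent markers summed to 17.2 to 17.5 CPM at 480 µg/ml and 51.9 to 57.9 CPM in untreated cells, and 2 of 3 tested fell. Most of this sum came from LIN28A and SOX2. POU5F1 had 0 counts in all 8 libraries, and NANOG had 0 in untreated cells and at most 3 in any other library. A loss of pluripotent cells was not tested. LIN28A, an RNA-binding protein of stem and progenitor cells, averaged 3.94 CPM at 480 µg/ml and 33.4 CPM in untreated cells. Of 6 tested type 2 alveolar markers 3 fell and 1 rose, and SLC34A2, a phosphate transporter, averaged 1.43 CPM at 480 µg/ml and 14.7 CPM in untreated cells. Of 8 mesenchymal markers 5 fell, among them PDGFRA (10.9 CPM at 480 µg/ml, 32.2 CPM in untreated cells) and COL3A1 (26.1 CPM at 480 µg/ml, 53.3 CPM in untreated cells). Their sum was 431 to 489 CPM at 480 µg/ml and 464 to 502 CPM in untreated cells, most of it from LUM (364 CPM at 480 µg/ml, 316 CPM in untreated cells, not called). The leukocyte markers summed to 183 to 207 CPM at 480 µg/ml and 227 to 268 CPM in untreated cells, mostly from LYZ and CD68, and 1 of 7 tested rose and 1 fell. PTPRC, which marks all leukocytes, had 22 and 16 counts (mean 0.322 CPM) at 480 µg/ml against 0 and 0 in untreated cells. Of the 7 tested leukocyte markers, 3 had a log2 fold change above 0 at this dose and 4 below. TYROBP and ITGAM had 0 counts both at 480 µg/ml and in untreated cells. The epithelial markers summed to 4777 to 5782 CPM at 480 µg/ml and 5821 to 6312 CPM in untreated cells, and 1 of 6 fell. Of the tested neural markers 2 of 3 fell, and of the intestinal markers 2 of 5 fell and 1 rose. Of the hepatic markers 2 of 6 rose, and of the endothelial markers 1 of 6 rose and 1 fell. Lists this short cannot set the leukocyte, epithelial, hepatic or endothelial counts apart from the share over all genes. The part of any of these markers in the chemokine and cytokine values was not tested.

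Across the 8 libraries, the genes most like the called members by Pearson's r of log2 CPM were KIAA0040 for CCL20 (r = 0.991), PMEPA1 for IL32 (0.995), CNTNAP3 for CXCL1 (0.989), CPNE2 for CXCL3 (0.994) and RALGDS for LIF (0.979), and TRIM17 was among the 3 most like CXCL5 (0.983). These are descriptions over 8 libraries that share 4 groups, picked as the highest of 18303 genes less the members.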

How the data were processed

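Messenger RNA of 8 libraries was sequenced from TruSeq stranded libraries, per the labels. Trimmomatic, HISAT2, Bowtie2 and StringTie and the build GRCh38 are named in the submitters' processing notes, without versions; the annotation and the strand counted are not given in the sources used here. The authors deposited whole-number read counts per gene symbol, without normalization, and TPM, which is scaled by length and sums to the same total in each library. Counts were tested with edgeR 4.0.16 in R 4.3.3 (TMM factors, filterByExpr with at least 10 counts and 15 in total, 1 quasi-likelihood model of group for the 8 libraries together, Benjamini-Hochberg adjustment over 18303 genes, threshold 0.05). The fit had 4 residual degrees of freedom. CPM is the count scaled to the TMM-adjusted library total, except for the floor, which uses the library total alone. SE is the size of the log2 fold change over the square root of F, and SD is over 2 libraries. TPM was used for levels between genes. The 5 comparisons set each dose against untreated cells, 240 against 24 µg/ml and 480 against 240 µg/ml. Alternatives were DESeq2 1.42.0, RLE factors, no or a stricter count filter (50), fits of 2 groups, a replicate block, limma 3.58.1 on log2(TPM + 1) and log2(TPM + 0.1), and leaving out each library. The edgeR step was tested on simulated data. Besides the members, the named genes are at most 4 per list with the smallest p at 480 µg/ml against untreated cells, and the most alike genes of called members. Outside this rule, the cell type markers, CCL28, CSF3R, LIFR, the chromosome 4 neighbours and the genes at or near 0 (CXCR1, CXCR2, CASP1, IL6 and CSF2) were named after their values were seen. The members and lists were chosen with earlier results of these data known. A gene that the naming rule gives is not reported here.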

Additional observations from a re-analysis of the deposited data

Results flagged for a closer look

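IL32 was called lower at 240 than at 24 µg/ml, which is a test of the difference between the effects of these 2 doses. It had 7.53 and 5.17 CPM at 240 µg/ml against 18.8 and 11.7 CPM at 24 µg/ml, a log2 fold change of -1.27 ± 0.27 (edgeR adjusted p = 0.0297). Both 240 µg/ml libraries lay below both 24 µg/ml libraries. The call held in 10 of 16 alternatives (adjusted p = 5.92e-06 to 0.216) and was lost without any 1 library of the untreated, 24 or 240 µg/ml groups.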

How the results depend on the processing

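Of 784 recomputed member values, 700 kept their direction and side of the threshold, 25 lost and 35 gained a call, and 24 reversed, none of them called. CXCL3, CXCL5, CCL20 and IL32 at 480 µg/ml were called in all alternatives that could be fitted. The stricter filter left CXCL1, CXCL2 and CXCL8 without a value, and the 2-group fit of 480 against 240 µg/ml left out CXCL1. With 2 libraries a group, a lone library left in a group is assumed to vary like the others. The 2 libraries at 480 µg/ml differed most from each other over all tested genes. The SD of their log2 ratio was 0.637, and 0.502 to 0.520 in the other groups. The model shares 1 estimate of the spread of a gene among all groups. The cause of the changes was not tested.

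Members called at 240 µg/ml against untreated numbered 3, but 5 with DESeq2, 6 with no filter, 5 with 2 groups, and 0 to 6 when 1 library was left out. Between 240 and 24 µg/ml the 1 call became 6 with no filter, 2 with 2 groups, 2 with limma on log2(TPM + 1), and 0 to 4 with 1 library left out. At 480 µg/ml the 5 calls stayed within 4 to 7. Over all genes, the 0 calls at 24 µg/ml became 36 with DESeq2, 83 with no filter, 14 with 2 groups, 1 with limma on log2(TPM + 0.1) and 0 to 24 with 1 library left out. The 1892 calls at 240 µg/ml became 2907 with no filter, 5399 with 2 groups and 120 (without the second 240 µg/ml library) to 4982 (without the second 480 µg/ml library), and the 5085 at 480 µg/ml became 2858 with 2 groups and 2248 (without the second untreated library) to 7889 (without the first 480 µg/ml library). The 1250 between 240 and 24 µg/ml became 2375 with no filter, 4341 with 2 groups, 783 and 682 with limma on log2(TPM + 1) and log2(TPM + 0.1), and 0 to 4630. The 47 between 480 and 240 µg/ml became 320 with DESeq2, 465 with no filter, 0 with 2 groups, 11 and 12 with limma, and 0 to 1471.

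Over all tested genes, same-numbered libraries did not deviate together (correlations -0.08 to 0.04). A correlation over all genes cannot show whether the numbers mark a shared culture or day that affects some genes. With the replicate block, members called were 0, 2 and 6 at 24, 240 and 480 µg/ml, 1 between 240 and 24 µg/ml and 0 between 480 and 240 µg/ml. All genes called were 0, 1289, 4385, 621 and 8 in the same order, and CXCL2 at 480 µg/ml was -0.0021. The block ended the calls of CCL20 and LIF at 240 µg/ml (adjusted p = 0.0503 and 0.0723).

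Reversed values, none called, ran as follows with 1 library left out. At 24 µg/ml CXCL1 ran from -0.19 to 0.87 and CXCL5 from -0.62 to 0.14. CXCL2 ran from -0.43 to 0.32 at 240 µg/ml and from -0.82 to 0.59 at 480 µg/ml. At 480 µg/ml IL18 ran from -0.058 to 0.12 and CSF1 from -0.10 to 0.12. Between 240 and 24 µg/ml CSF1 ran from -0.60 to 0.038 and LIF from -0.080 to 0.36. Between 480 and 240 µg/ml CXCL1 ran from -1.68 to 0.26, CXCL2 from -0.72 to 0.69, CXCL8 from -0.54 to 2.00, IL32 from -0.50 to 0.041 and LIF from -0.42 to 0.027. With limma on log2(TPM + 1) and log2(TPM + 0.1), 480 µg/ml gave CXCL2 -0.0049 and -0.10, IL18 -0.0196 and -0.0208, and CSF1 -0.10 and -0.16.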
